A study of Mus musculus with 3 samples.

Results

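The AP-1 family was followed through single cells of the mouse retina with 8 genes, Fos, Fosb, Fosl1, Fosl2, Jun, Junb, Jund and Atf3, chosen by name from the 18545 genes in the matrix. Droplet single-cell RNA sequencing with unique molecular identifiers (UMIs, 1 for each captured transcript) had been run on 3 libraries. All mice were of strain C57BL/6J. The WT library came from wildtype mice, which the sample title calls non-treated and the agent label Vehicle, the rd10-vehicle library from rd10 mice on vehicle chow, and the rd10-TMB library from rd10 mice whose chow held tamsulosin, metoprolol and bromocriptine, drugs that act on G protein-coupled receptors. The rd10 mouse carries a mutation of the rod phosphodiesterase gene Pde6b, and its rods die before its cones do. All mice were 8 weeks old, and retinas of several mice were pooled into 1 library per group. For this experiment the paper gives rearing in darkness, which slows the loss of rd10 photoreceptors, for the rd10 mice. It does not give it for the WT mice, so rearing may also differ between WT and rd10. With 1 library per group there was no replicate, so no difference between groups was tested and no p-value is given, and mouse, pool, sex, dissociation and library cannot be told apart from the group. Comparisons of the rd10 libraries are written as with TMB against with vehicle. Both rd10 pools are labelled female, and the methods give both sexes for the WT pool.

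AP-1 is a dimer of basic leucine zipper proteins. Proteins of the Fos group (Fos, Fosb, Fosl1, also called Fra-1, and Fosl2, also called Fra-2) bind DNA only with a partner, usually a Jun protein, whereas Jun, Junb and Jund can also pair with each other, and Atf3, a stress-responsive relative, pairs with Jun proteins and often represses its targets. Fos, Fosb, Jun, Junb and Atf3 are immediate-early or early stress genes whose transcripts rise within minutes to hours of a stimulus and decay fast, Jund is transcribed more steadily, and Fosl1 follows sustained MAP kinase signalling. In the retina these genes are known for light-driven and injury-driven induction in photoreceptors and in Müller glia (MG), the radial glia that span the tissue, and they are also known to respond to the enzymatic dissociation that precedes droplet capture.

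The promoters of the family are shown because Fos and Atf3 are classical targets of CREB and ATF factors and Jun of its own product. RefSeq promoters of build GRCm38.p6 were matched by symbol for 7 members, and Fosl1 had no entry in the table. Each window held 300 bases, of which 250 precede the transcription start (the base before the start is position -1). Searched on both strands, the short core TGACG of the cAMP response element was present in 4 of the 7 windows and in 20.8% of all 32851 promoters, and its longer core TGACGT, which contains it, was in 2 of 7 and 7.51%. The full cAMP response element TGACGTCA (1.79% of promoters), the consensus AP-1 site TGANTCA (7.81%) and the CArG box of serum response factor (1.63%) had no match in these 7 windows. Sites beyond the windows were not searched. Jun carried TGACATCA at -45 to -38 and TTACCTCA at -164 to -157, variants that Jun and ATF dimers are known to bind, found in 3.62% and 0.889% of promoters. Fos carried TGACGT at -66 to -61 and TGACG again at -129 to -125, Fosb carried TGACG at -60 to -56, Junb at -106 to -102, and Atf3 carried the core on the other strand at -8 to -3. The TATA box TATAAA (13.6% of promoters) stood at -33 to -28 of Fos and just past the start of Junb. The windows of Fosl2 and Jund had none of these motifs. The Fosb start of this table lies inside the gene model, which reaches position 19310118 of chromosome 7. The 170 bases before the start of the 5 members with a match are printed 5′ to 3′ on the strand of the gene, and capitals mark the matches just named, other than those of the TATA box. They lie at chr12:85473720-85473889 (plus strand) for Fos, chr7:19310046-19310215 (minus) for Fosb, chr4:95052223-95052392 (minus) for Jun, chr8:84978749-84978918 (minus) for Junb and chr1:191183334-191183503 (minus) for Atf3.
Fos: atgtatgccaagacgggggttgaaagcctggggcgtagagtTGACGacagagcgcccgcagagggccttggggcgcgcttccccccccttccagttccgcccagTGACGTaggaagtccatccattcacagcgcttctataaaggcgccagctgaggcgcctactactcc
Fosb: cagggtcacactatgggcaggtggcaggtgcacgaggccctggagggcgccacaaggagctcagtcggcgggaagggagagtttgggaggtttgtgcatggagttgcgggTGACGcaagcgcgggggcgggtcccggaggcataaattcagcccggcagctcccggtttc
Jun: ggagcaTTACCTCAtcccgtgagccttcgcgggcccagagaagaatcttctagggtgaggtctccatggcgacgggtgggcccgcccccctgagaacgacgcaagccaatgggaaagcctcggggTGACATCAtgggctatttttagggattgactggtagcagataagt
Junb: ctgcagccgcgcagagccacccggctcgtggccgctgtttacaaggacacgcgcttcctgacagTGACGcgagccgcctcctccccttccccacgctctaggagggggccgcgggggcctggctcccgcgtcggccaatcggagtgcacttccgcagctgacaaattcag
Atf3: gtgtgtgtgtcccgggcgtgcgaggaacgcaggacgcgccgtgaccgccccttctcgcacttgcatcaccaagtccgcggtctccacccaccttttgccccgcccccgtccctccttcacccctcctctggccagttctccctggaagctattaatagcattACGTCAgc
A match is a run of letters and says nothing of binding in these cells.

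The libraries held 4478 (WT), 5952 (rd10-vehicle) and 4812 cells (rd10-TMB), with 18882951, 37002532 and 29192530 UMIs and medians of 3509.5, 4811.5 and 4772.5 UMIs per cell. Median mitochondrial shares were 6.31%, 6.38% and 6.51%, and 7 to 10 cell barcodes were shared by each pair of libraries. The deposited data assign each cell to 1 of 21 numbered clusters, which were named from marker genes with the ending "-like". Of the 10 clusters with at least 50 cells in every library, MG-like cells (cluster 0, 11 of 11 markers raised), rod-like (9 of 9), cone-like (9 of 9), rod bipolar cell (RBC)-like (8 of 8) and endothelial-like cells (7 of 8) were marked by their own lists. The endothelial-like cluster 11, with 3 endothelial markers among its 10 leading genes, also raised 8 of 8 pericyte and mural markers, none of them leading, and 4 of 4 red blood cell markers, so RNA of mural and blood cells was present there and its part in the AP-1 levels was not tested. The ON cone bipolar-like cluster 3 rested on 5 of 8 markers with none among its 10 leading genes, OFF cone bipolar-like clusters 7 and 8 on 3 and 9 of 9, and clusters 6 and 10, which carried bipolar markers, were kept by number. MG-like cells numbered 530, 2492 and 1748 in WT, rd10-vehicle and rd10-TMB and held 17.6%, 60.0% and 57.5% of all UMIs, so levels are given within clusters. Levels are in CPM, the UMI count of a gene scaled by all UMIs of the cluster in that library, and brackets hold 95% intervals that cover counting error only. Against WT a gene was counted as higher from 2-fold, and between the rd10 libraries as higher or lower from 1.2-fold, when it had at least 50 UMIs over both libraries.

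AP-1 transcripts were most concentrated in glia and vessel cells. In WT, Fos was highest in endothelial-like (6118 CPM) and MG-like cells (4028 CPM), followed by OFF cluster 7 (2423 CPM), cone-like (1536 CPM) and ON cone bipolar-like cells (1025 CPM). RBC-like cells were at the other end with 69.7 CPM [58.5, 82.4], and in the whole order the intervals of neighbours overlapped only for rod-like cells and cluster 6. The intervals of Jun and of Jund overlapped between WT MG-like and endothelial-like cells (4536 and 4487 CPM for Jun, 2377 and 2403 CPM for Jund), and the next cluster, OFF cluster 7, lay far below at 629.5 and 760.6 CPM. In rd10-vehicle the cone-like cluster moved above OFF cluster 7 in the order of Fos levels (3260 and 2740 CPM), whereas in WT and in rd10-TMB it stood below it (2574 and 3170 CPM in rd10-TMB). MG-like cells supplied 40.1% of the Fos UMIs of the WT library and 74.5% and 76.6% of those of the rd10 libraries, a share that moves with the number of MG-like cells. For Fosl1 that share was 96.6% of the 465 UMIs with vehicle and 92.5% of the 228 with TMB, and the WT library held no Fosl1 UMI in any cluster.

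**Figure D1:**
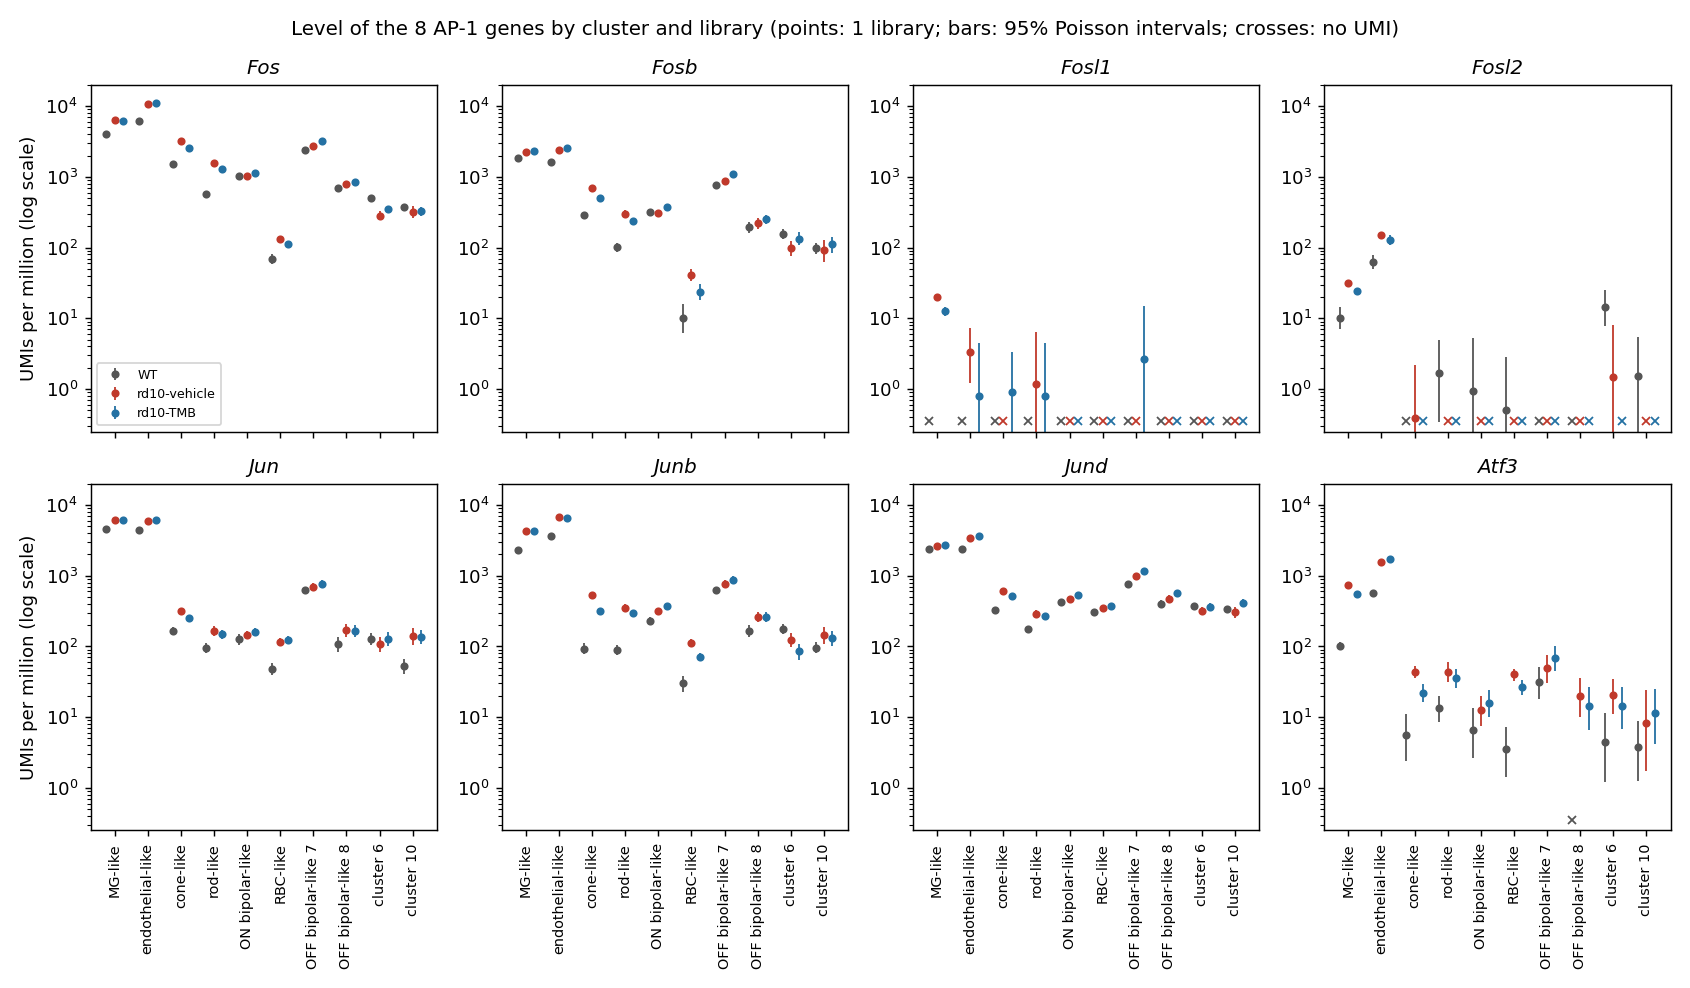
Level of each AP-1 gene (CPM, log scale) in the 10 clusters with at least 50 cells per library, with 1 point per library, 95% Poisson intervals, and crosses for libraries without a UMI. Fos, Fosb, Jun, Junb, Jund and Atf3 are highest in MG-like and endothelial-like cells of each library, and Fosl1 stands above 10 CPM only in MG-like cells of the rd10 libraries.

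In MG-like cells 3 members, Atf3, Fosl1 and Fosl2, were more than 2-fold higher in both rd10 libraries than in WT, and the other 5 were higher by less. Atf3 stood at 103 (WT), 733 (rd10-vehicle) and 552 CPM (rd10-TMB). Its log2 ratio was 2.83 [2.68, 2.99] for rd10-vehicle over WT and -0.41 [-0.45, -0.37] for rd10-TMB over rd10-vehicle. Fosl2, the Fra-2 gene, had 10.2, 31.9 and 24.2 CPM, with log2 ratios of 1.60 [1.14, 2.18] and -0.40 [-0.58, -0.22]. Fosl1, the Fra-1 gene, had 0 UMIs in WT, 449 with vehicle (20.2 CPM) and 211 with TMB (12.6 CPM). Taking 3 counts as the floor of the WT cluster, Fosl1 was 22.4-fold above that floor in rd10-vehicle and 13.9-fold in rd10-TMB. Under the alternatives its log2 ratio over WT ran from 3.23 to 9.39 in rd10-vehicle and from 2.61 to 8.71 in rd10-TMB. The log2 ratio of Fosl1 for rd10-TMB over rd10-vehicle was -0.68 [-0.93, -0.45]. For these 3 genes WT was lowest, rd10-vehicle highest and rd10-TMB between them. The log2 ratio of Atf3 for rd10-TMB over WT was 2.42, and 1.06 when cells were averaged within bins of equal depth. The same averaging turned the Fosb ratio of rd10-TMB over WT from 0.34 to -0.07. The study named Atf3 in MG from these same libraries, so its direction there is no independent evidence.

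The abundant members stayed under 2-fold in MG-like cells. Junb, an early-response Jun protein that can restrain Jun, came closest with 2314, 4355 and 4329 CPM in WT, rd10-vehicle and rd10-TMB (0.91 [0.88, 0.95] for rd10-vehicle over WT). Fos had 4028, 6332 and 6136 CPM, Jun 4536, 6124 and 6076 CPM, Fosb 1823, 2242 and 2310 CPM and Jund 2377, 2668 and 2769 CPM. Their log2 ratios of rd10-vehicle over WT were 0.65, 0.43, 0.30 and 0.17. Between the rd10 libraries their log2 ratios ran from -0.05 (Fos) to 0.05 (Jund), so the difference seen for Atf3, Fosl1 and Fosl2 did not extend to Fos, Fosb, Jun, Junb and Jund. By count, 3 of 8 members were 2-fold higher in rd10-vehicle than in WT against 4.17% of all genes tested in this cluster, 3 of 8 in rd10-TMB against 3.12%, and 3 of 8 were 1.2-fold lower with TMB than with vehicle against 11.3%. Fosl1, with 0 UMIs in WT, passed the minimum of UMIs through the rd10 libraries alone. No member was 1.2-fold higher in rd10-TMB (6.8% of all genes). The median log2 ratio of the members over WT was 0.78 in rd10-vehicle, where the median of all genes was -0.06. When every cell was cut to 1000 UMIs the log2 ratios of Fosl2 over WT were 0.48 (rd10-vehicle) and 0.37 (rd10-TMB), both under the 2-fold limit, and that between the rd10 libraries was -0.11, inside the 1.2-fold limit. The mean of per-cell CPM within UMI deciles also left Fosl2 of rd10-TMB under 2-fold (0.42).

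In cone-like cells all 6 members with enough UMIs were highest in rd10-vehicle and lowest in WT. Junb had 93.3, 527 and 314 CPM in WT, rd10-vehicle and rd10-TMB, with log2 ratios of 2.49 [2.24, 2.76] for rd10-vehicle over WT and -0.75 [-0.88, -0.61] for rd10-TMB over rd10-vehicle. Atf3 rested on 8, 112 and 48 UMIs (5.61, 43.7 and 22.1 CPM), with log2 ratios of 2.80 [1.93, 4.21] and -0.97 [-1.50, -0.48]. Jun had 164, 314 and 250 CPM (0.94 [0.73, 1.16] and -0.33 [-0.49, -0.17]). Jund, the steadier Jun protein, had 331, 618 and 522 CPM, with log2 ratios of 0.90 [0.75, 1.05] and -0.24 [-0.35, -0.13], the latter inside the 1.2-fold limit. Fos had 1536, 3260 and 2574 CPM and Fosb 288, 689 and 498 CPM, with log2 ratios of 1.08 [1.02, 1.15] and 1.25 [1.10, 1.42] for rd10-vehicle over WT and of -0.34 and -0.47 for rd10-TMB over rd10-vehicle. Fos, Fosb and Junb in cones were likewise named by the study from these libraries. Median mitochondrial shares of cone-like cells were 8.77%, 10.2% and 10.3%. By count, 4 of 6 members (Fos, Fosb, Junb and Atf3) were 2-fold higher in rd10-vehicle than in WT against 1.07% of all genes, 2 of 6 (Junb and Atf3) in rd10-TMB against 0.717%, and 5 of 6 were 1.2-fold lower with TMB than with vehicle against 14.3%. Jund passed that limit too in 4 of 10 alternatives (down to -0.31). None of the 6 was 1.2-fold higher in rd10-TMB (14.1% of all genes). Over the 3 libraries cone-like cells held 2 UMIs of Fosl1 and 1 of Fosl2. With only those WT cells that had Xist UMIs and no Y-linked UMI, 2 of 6 members were 2-fold higher in rd10-vehicle, and the log2 ratios of Fos and Fosb were both 0.96. Thinned to 1000 UMIs per cell, the log2 ratio of Fos was 0.94.

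Rod-like cells also had all 6 members with enough UMIs lowest in WT and highest in rd10-vehicle, an order that for Jun did not hold after the subtraction of MG-like RNA described further on (rd10-TMB over rd10-vehicle -0.14 before and 0.30 after). Nor did that order hold for Jund with cells thinned to 1000 UMIs (-0.09 before and 0.04 after). Fos had 569, 1598 and 1297 CPM in WT, rd10-vehicle and rd10-TMB (1.49 [1.37, 1.61] and -0.30 [-0.41, -0.20]). Junb had 89.0, 354 and 297 CPM (1.99 [1.71, 2.28] and -0.26 [-0.48, -0.03]), and Fosb had 101, 299 and 237 CPM (1.57 [1.29, 1.85] and -0.34 [-0.58, -0.09]). Atf3 rested on 24, 38 and 45 UMIs, and its interval between the rd10 libraries, -0.97 to 0.35, included 0. Together 4 of 6 members (Fos, Fosb, Junb and Atf3) were 2-fold higher in rd10-vehicle than in WT (1.86% of all genes) and 4 of 6 in rd10-TMB (1.18%), 3 of 6 were 1.2-fold lower with TMB than with vehicle (17.8%) and none was higher (16.7%). Jun, at 95.1, 165 and 150 CPM, and Jund, at 177, 288 and 271 CPM, stayed under 2-fold, except for Jund in rd10-vehicle under 1 of 11 alternatives (1.15). Between the rd10 libraries Fos, Fosb and Atf3 each lost the 1.2-fold call in 2 of 10 alternatives and Junb gained it in 2, and over WT the same 3 members of rd10-TMB each fell under 2-fold in 1 of 11 (0.99, 0.88 and 0.77).

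RBC-like cells, the second-order neurons of the rod pathway, had little AP-1 RNA, and 4 of 6 members were lowest in WT and highest in rd10-vehicle. Atf3 was at 3.56 CPM (7 UMIs) in WT, at 40.1 CPM with vehicle and at 26.3 CPM with TMB, with a log2 ratio of 3.32 [2.40, 4.84] for rd10-vehicle over WT. Junb had 30.0, 113 and 71.1 CPM (1.89 [1.51, 2.34] and -0.67 [-0.94, -0.40]) and Fosb 10.2, 41.3 and 23.7 CPM (1.96 [1.32, 2.79] and -0.79 [-1.27, -0.34]). Jun differed from them, with 48.4, 117 and 124 CPM and a log2 ratio between the rd10 libraries of 0.09 [-0.14, 0.32]. Jund differed least, with 306, 352 and 376 CPM. Against WT, 4 of 6 members (Fosb, Jun, Junb and Atf3) were 2-fold higher in rd10-vehicle (0.993% of all genes) and 4 of 6 in rd10-TMB (0.541%), and 3 of 6 (Fosb, Junb and Atf3) were 1.2-fold lower with TMB than with vehicle (14.6%), with none higher (10.4%). After the subtraction of MG-like RNA, Jun fell under 2-fold in rd10-vehicle (0.92) and stood past 1.2-fold higher with TMB than with vehicle (0.43). Fos, just inside both limits (0.92 against WT and -0.26 between the rd10 libraries), passed the first in 2 of 11 alternatives and the second in 5 of 10, and Junb of rd10-TMB was under 2-fold in 1 of 11 (0.98).

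ON cone bipolar-like cells did not share this pattern. Fos had 1025, 1019 and 1143 CPM in WT, rd10-vehicle and rd10-TMB, a log2 ratio of rd10-vehicle over WT of -0.01 [-0.12, 0.11]. Junb had the largest ratio of rd10-vehicle over WT among the 5 members with enough UMIs, with 231, 317 and 370 CPM (0.45 [0.23, 0.68]), and its ratio between the rd10 libraries was 0.22 [0.04, 0.41]. No member was 2-fold higher in rd10-vehicle (0.447% of all genes) or rd10-TMB (0.266%) than in WT. Atf3 had only 7, 18 and 21 UMIs, and no member was 1.2-fold higher (14.2%) or lower (14.5%) with TMB than with vehicle. All 5 ratios between the rd10 libraries were above 0, between 0.12 and 0.25, whereas in cone-like cells all 6 were below 0, and differences between clusters were not tested. Some of these ratios passed the 1.2-fold limit under alternatives, Fosb in 4 of 10 (up to 0.38), Junb in 2 (up to 0.33), Jund in 1 (0.38 with thinned cells) and Jun in 1 (0.56 with MG-like RNA subtracted). Among the compared clusters OFF cluster 7 was the neuronal one richest in Fos, Fosb, Jun, Junb and Jund in WT, where it held 0 UMIs of Fosl2. Fos in that cluster went from 2423 to 2740 and 3170 CPM and Jund from 761 to 994 and 1150 CPM, all under 2-fold. Cluster 6 ran the other way for Fos, with 504, 282 and 347 CPM, a log2 ratio of rd10-vehicle over WT of -0.83 [-1.09, -0.59]. In cluster 10 Jun had 52.5, 141 and 137 CPM, and 42.3, 76.8 and 105.3 CPM after the subtraction of MG-like RNA.

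Endothelial-like cells, a cluster that also carried mural markers, held the highest levels of Fos, Junb, Fosl2 and Atf3 among the 10 clusters in each library. Fos had 6118, 10922 and 11099 CPM in WT, rd10-vehicle and rd10-TMB (0.84 [0.80, 0.87] for rd10-vehicle over WT) and Junb 3610, 6820 and 6638 CPM (0.92 [0.87, 0.97]). Atf3 had 574, 1592 and 1737 CPM, with log2 ratios of 1.47 [1.36, 1.59] and, between the rd10 libraries, 0.13 [0.05, 0.21]. Fosl2 had 63.0, 149 and 127 CPM (1.23 [0.88, 1.60] and -0.22 [-0.52, 0.06]). Against WT 2 of 7 members (Fosl2 and Atf3) were 2-fold higher in rd10-vehicle (1.67% of all genes) and 2 of 7 in rd10-TMB (1.42%). The Fosl2 ratio of rd10-TMB over WT was just past the limit (1.01), fell under it in 4 of 11 alternatives and turned to -0.95 with cells thinned to 1000 UMIs, and that of rd10-vehicle was 0.48 with thinned cells. Other members passed 2-fold only under alternatives, Junb in 4 of 11 (up to 1.30) and Fos in 2 (1.17 with thinned cells) for rd10-vehicle, and Junb in 3 (up to 1.26) and Fos in 2 (up to 1.18) for rd10-TMB. Between the rd10 libraries 0 of 7 were 1.2-fold higher (15.9%) and 0 of 7 lower (16.8%), so the lower Atf3 of rd10-TMB in MG-like, cone-like and RBC-like cells was not seen in this cluster. With thinned cells Atf3 was past 1.2-fold higher (0.31), and Fosl2 was past it lower in 4 of 10 alternatives (down to -1.43). Each library held only 100 to 156 of these cells. Cells with little AP-1 RNA were more frequent in the WT part of this cluster and carried less Cldn5, as given further on. Their part in the ratios over WT was not tested. Among clusters too small to compare, Atf3 had 2, 746 and 574 UMIs in the 6, 52 and 30 microglia-like cells, and Fosl1 had 11 UMIs in the microglia-like cells of rd10-TMB and none in the other libraries. Fosl2 had 7, 16 and 16 UMIs in the 20, 25 and 22 mural-like cells. Cluster 20, led by keratin genes and made of 9 cells, all from rd10-vehicle, held 846 Atf3 and 8 Fosl1 UMIs.

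**Figure D2:**
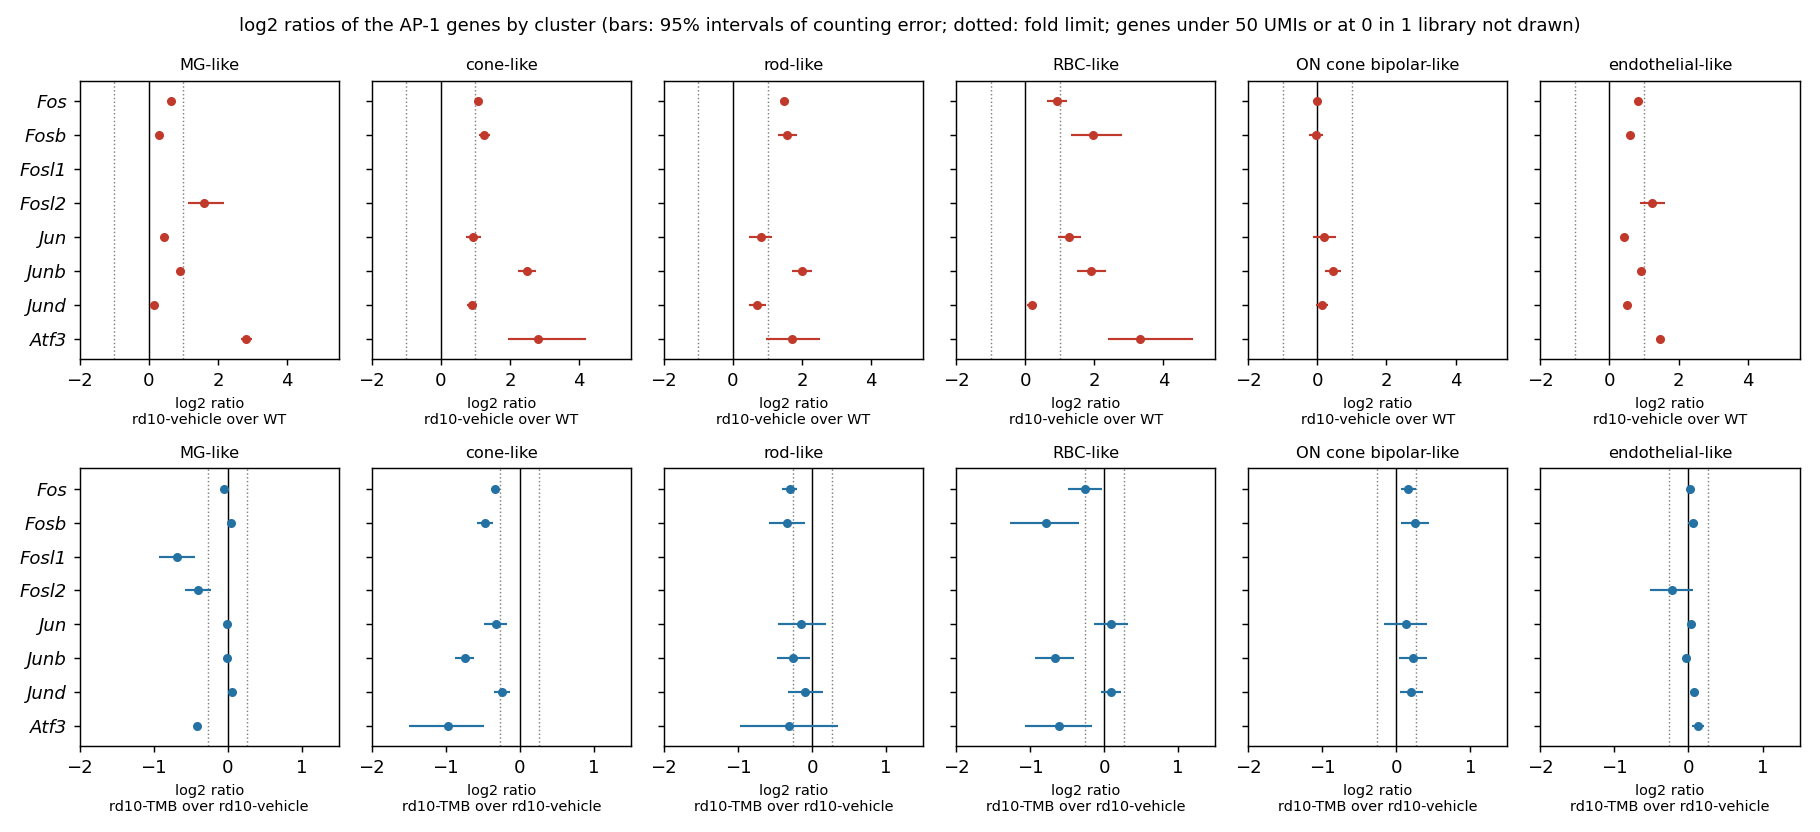
Log2 ratios of the AP-1 genes in 6 clusters, rd10-vehicle over WT in the upper row and rd10-TMB over rd10-vehicle in the lower row, with 95% intervals of counting error and dotted lines at the fold limits. Points lie right of 0 for the members of MG-like, cone-like, rod-like and RBC-like cells in the upper row, all 6 points lie left of 0 in the lower cone-like panel, and the ON cone bipolar-like points of the upper row stay inside the limits.

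Transcripts of MG-like cells were present in the neuronal clusters, and that background moved with the group. The 11 MG markers stood at a median of 0.714%, 1.64% and 1.14% of their MG-like level in rod-like cells of WT, rd10-vehicle and rd10-TMB, at 0.251%, 0.763% and 0.492% in RBC-like, at 0.391%, 1.22% and 0.887% in ON cone bipolar-like and at 0.319%, 0.814% and 1.02% in cone-like cells. Subtracting that share of the MG-like level took rod-like Jun to 62.7, 64.5 and 80.3 CPM, ON cone bipolar-like Jun to 109, 71.4 and 105.5 CPM and RBC-like Fos to 59.6, 84.3 and 80.5 CPM. The rd10-vehicle level then stood close to WT for rod-like Jun, with rd10-TMB highest, and below it for ON cone bipolar-like Jun. RBC-like Jun became 36.9, 70.2 and 94.5 CPM, under 2-fold between rd10-vehicle and WT. In cone-like cells Junb stayed at 86.0, 491 and 270 CPM and Atf3 at 5.29, 37.7 and 16.5 CPM after subtraction. The counts against WT remained 4 and 2 of 6 there, and 6 of 6 members were 1.2-fold lower with TMB than with vehicle. The subtraction was added after the data were seen.

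Detection per cell was compared after each cell had been thinned to 1000 UMIs, leaving out cells with fewer. Atf3 was found in 5.88% [4.03, 8.25] of 527 WT, 32.0% [30.2, 33.9] of 2476 rd10-vehicle and 23.5% [21.5, 25.6] of 1727 rd10-TMB MG-like cells, against 14.3%, 60.4% and 48.6% before thinning. In RBC-like cells, which had little of it, the thinned shares were 0% (0 of 401 cells, which allows a share of up to 0.748% by 3 counts, or 0.916% by Clopper-Pearson), 3.87% and 2.52%, and 1.73%, 10.6% and 8.19% before thinning. Such limits apply to cells with a UMI at this depth, not to cells that express the gene. Junb was found in 61.9%, 92.6% and 88.6% of MG-like cells, Fos in 77.0%, 96.0% and 92.0%, and Jun in 81.8%, 94.8% and 92.0%. So fewer WT than rd10 cells of this cluster had each of these transcripts at equal depth. Fosl1 was found in 0 of 527 WT cells, which allows a share of up to 0.569% by 3 counts, or 0.698% by Clopper-Pearson, in 1.58% of rd10-vehicle and in 1.04% of rd10-TMB cells. Fosl2 was found in 1.52%, 2.26% and 2.03%, with overlapping intervals. In cone-like cells the thinned shares of Junb were 8.42%, 34.3% and 24.2% and those of Fosb 23.1%, 42.6% and 33.2%, in the order of the levels.

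The number of members detected in the same cell, at 1000 UMIs, followed these shares. MG-like cells had a mean of 3.72 (WT), 4.87 (rd10-vehicle) and 4.64 members (rd10-TMB), and 44.4%, 76.9% and 72.0% of them had 5 or more. Endothelial-like cells had 3.58, 5.26 and 5.22 members. Cone-like cells had 1.38, 2.27 and 1.91, with 12.5%, 43.9% and 29.5% at 3 or more. ON cone bipolar-like cells differed less (1.27, 1.40 and 1.60), and RBC-like cells had the fewest (0.42, 0.70 and 0.60).

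**Figure D3:**
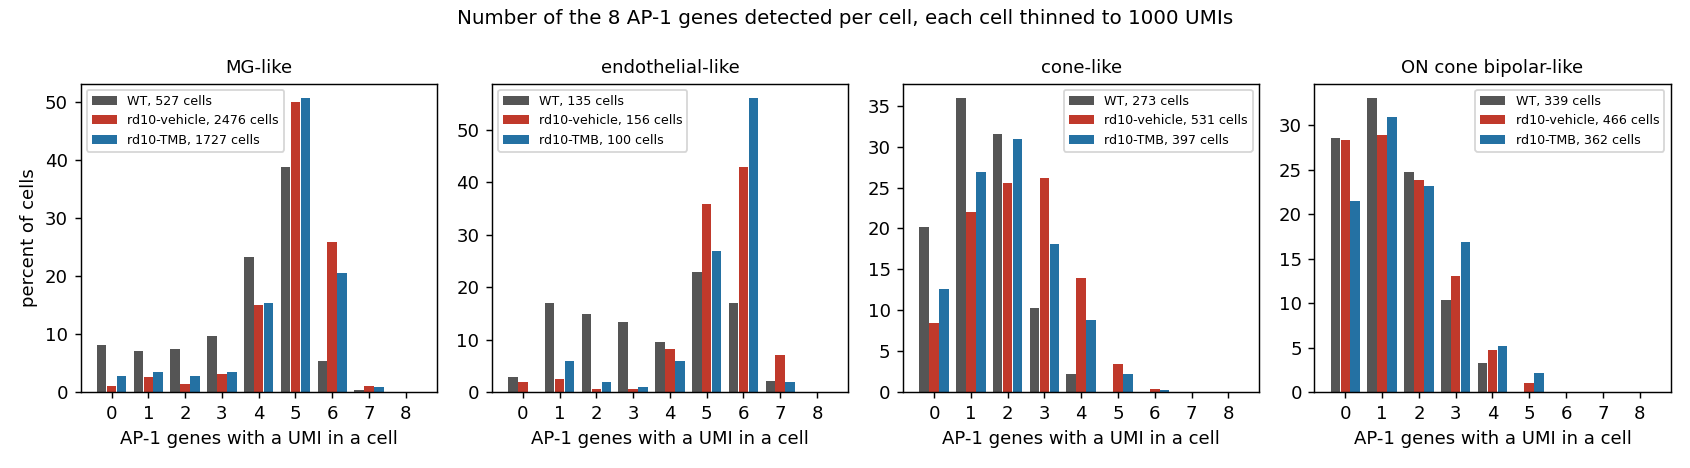
Percent of cells by the number of AP-1 genes with a UMI, each cell thinned to 1000 UMIs, in 4 clusters and 3 libraries. In MG-like cells the peak is at 5 genes in each library while WT has more cells at 0 to 3, and in cone-like cells the peak is at 1 gene (WT), 3 genes (rd10-vehicle) or 2 genes (rd10-TMB).

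How often members were found together was read for the pairs with at least 10 cells expected from their separate shares, and many intervals included a ratio of 1. In MG-like cells the interval lay above 1 for 11 of 15 pairs in WT, 12 of 27 in rd10-vehicle and 12 of 25 in rd10-TMB, in cone-like cells for 0 of 6, 5 of 13 and 1 of 10, and the others included 1. Pairs of other genes were not computed, so these counts have no share of all pairs beside them. Whether ratios above 1 are particular to these members was not tested. In WT MG-like cells Fos and Jun, partners in the classical dimer, were both found in 72.9% of cells where 63.0% follows from the separate shares, a ratio of 1.16 [1.09, 1.22]. That ratio was 1.03 [1.02, 1.04] with vehicle and 1.05 [1.03, 1.07] with TMB, where both genes were in nearly all cells and the ratio could hardly exceed 1. Fosb and Junb had 1.28 [1.17, 1.38] in WT MG-like cells and 1.30 [1.08, 1.55] in rd10-vehicle cone-like cells. Fos and Fosb in cone-like cells had 1.12 [0.84, 1.45], 1.13 [1.01, 1.26] and 1.25 [1.07, 1.44] in WT, rd10-vehicle and rd10-TMB, and Fos and Jun had intervals that included 1 in each library. Fosl1 and Fosl2 were found together in only 2 thinned cells of each rd10 library, too few to read.

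The summed level of Fos, Fosb, Jun, Junb and Jund per cell showed MG-like cells with low AP-1 RNA for their cluster beside cells with much. Its median was 14273 CPM (WT), 21542 CPM (rd10-vehicle) and 21522 CPM (rd10-TMB). Under 2000 CPM, a boundary set after the values were seen, lay 84 of 527 cells in WT (15.9%), 88 of 2476 with vehicle (3.55%) and 121 of 1727 with TMB (7.01%). In WT these cells carried the MG marker Rlbp1 at 2992 CPM against 2753 CPM in cells at 8000 CPM or more, and Sox9 at 257 against 551 CPM. They were shallower (median 3993 against 7069 UMIs) and had less Egr1, another immediate-early gene (82.8 against 1660 CPM). In WT endothelial-like cells 29 of 135 were under 2000 CPM, with a median mitochondrial share of 10.3% and 607 CPM of the endothelial gene Cldn5, against 3.599% and 3585 CPM in cells at 8000 CPM or more. A high mitochondrial share thus moved with a low AP-1 level in that cluster, and its part in the difference from rd10 was not tested. In cone-like cells the medians were 2089, 4923 and 3560 CPM, and 0.366%, 18.1% and 9.82% of cells had 8000 CPM or more.

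**Figure D4:**
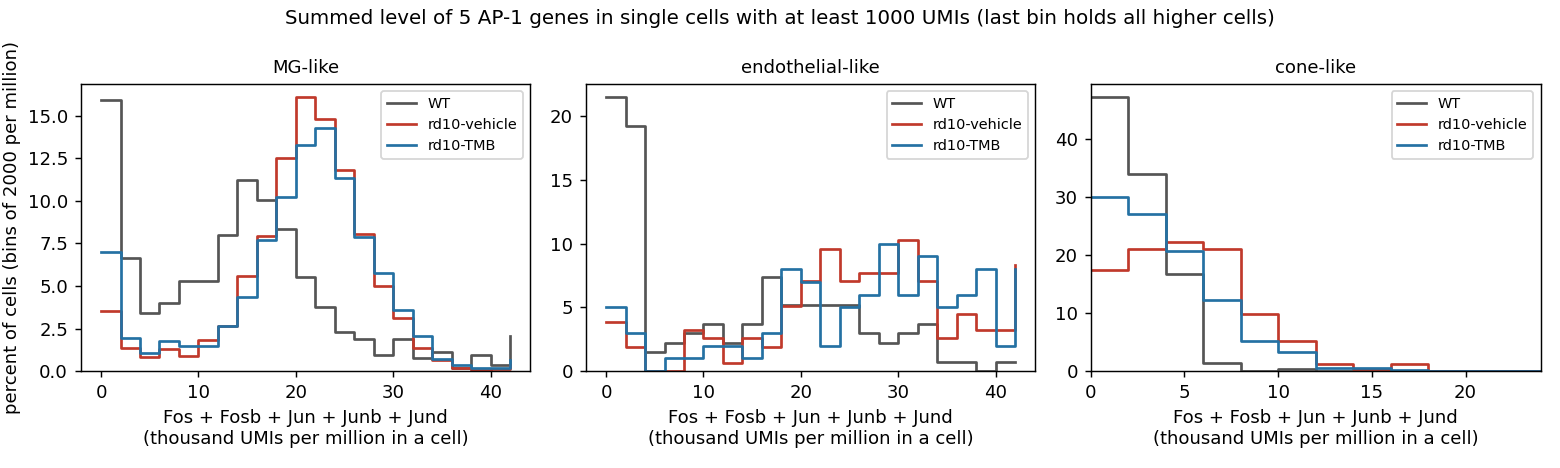
Percent of cells by the summed level of Fos, Fosb, Jun, Junb and Jund (CPM within a cell, axis in units of 1000, bins of 2000) for 3 clusters and 3 libraries. WT MG-like cells have a peak in the lowest bin (15.9%) and a broad one around the median of 14273 CPM, the rd10 MG-like cells peak near their medians of 21542 and 21522 CPM, and more rd10-vehicle than WT cone-like cells lie at 8000 CPM or more (18.1% and 0.366%).

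Within MG-like cells Atf3, Fosl1 and Fosl2 were higher in cells that carried a marker of reactive glia. Cells were split by the presence of an Lcn2 UMI, lipocalin 2 being a secreted protein of reactive glia, within each rd10 library (WT had too few such cells). The 653 rd10-vehicle cells with Lcn2 had 1171 CPM of Atf3 and the 1839 without had 511 CPM, a log2 ratio between 1.15 and 1.24, and in rd10-TMB the 300 cells with Lcn2 had 1109 and the 1448 without 374 CPM (1.57 [1.51, 1.63]). At 1000 UMIs Atf3 was found in 48.0% against 26.3% of cells in rd10-vehicle and in 48.7% against 18.3% in rd10-TMB. Fosl1 had 32.5 against 14.04 CPM in rd10-vehicle (1.21 [0.93, 1.48]) and 23.4 against 9.12 CPM in rd10-TMB (1.36 [0.95, 1.76]). Fosl2 had smaller ratios of 0.37 [0.15, 0.59] and 0.85 [0.54, 1.14]. Jun did not follow Lcn2 (0.06 and 0.01) and Fos hardly (0.16 and 0.22). Cells with Lcn2 were deeper (medians of 10153 against 8175 UMIs in rd10-vehicle and 11722 against 9064.5 in rd10-TMB) and had lower Glul, the glutamine synthetase gene of resting MG, with log2 ratios of -0.77 and -0.83.

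**Figure D5:**
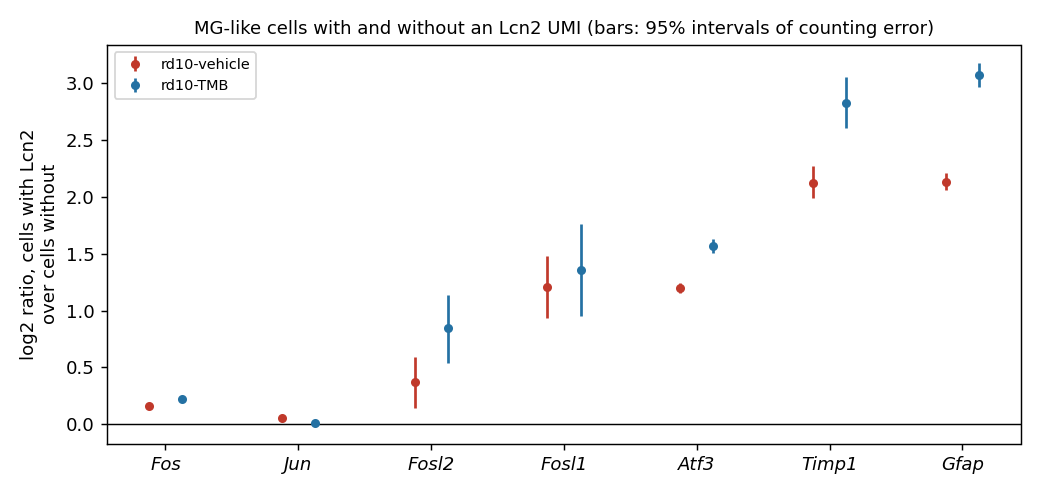
Log2 ratio of the level in MG-like cells with an Lcn2 UMI over cells without one, in each rd10 library, with 95% intervals of counting error. Fos and Jun lie within 0.25 of 0, Fosl2, Fosl1 and Atf3 lie above them, and the glial stress genes Timp1 and Gfap lie highest.

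The few MG-like cells with Fosl1 differed in other genes too. They numbered 178 in rd10-vehicle and 80 in rd10-TMB, a split chosen after the data were seen, and they too were deeper (medians of 10127 against 8457.5 and 12271 against 9340.5 UMIs). Fosl2, its nearest relative, had 88.0 CPM in them against 25.7 CPM in the other MG-like cells of rd10-vehicle and 85.5 against 19.2 CPM in rd10-TMB. Of 12 known AP-1 targets measured in MG-like cells, 5 (Lif, Ccl2, Timp1, Hmox1 and Hbegf) were at least 2-fold higher in these cells in both libraries, beside 1.84% of all genes tested (3.29% in rd10-vehicle and 5.04% in rd10-TMB taken alone). Lif, a cytokine released by stressed MG, had 65.5 against 4.90 CPM and 58.6 against 4.06 CPM. The chemokine gene Ccl2 had 84.4 against 5.95 CPM and 107 against 1.48 CPM, and Timp1, an inhibitor of matrix proteases, had 260 against 68.0 CPM and 181 against 35.5 CPM. Hmox1, heme oxygenase, had 40.6 against 12.5 CPM and 70.4 against 10.2 CPM. Fos, Jun and Junb did not mark these cells, with log2 ratios of 0.13, -0.05 and 0.04 in rd10-vehicle and 0.09, -0.08 and -0.01 in rd10-TMB. Cells with an Atf3 UMI had more of all 5 abundant members than cells without one, with log2 ratios from 0.42 (Jund) to 0.91 (Junb) in WT, from 0.25 (Jund) to 0.38 (Fosb) with vehicle and from 0.26 (Jun) to 0.37 (Fos) with TMB, and Fosl2 (0.78 and 1.08) and Fosl1 (1.42 and 2.86) had larger ratios in the rd10 libraries. They too were deeper (medians of 8185.5 against 5974.5 UMIs in WT).

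Other genes of the pathway were counted from lists chosen with earlier results of these data known. In MG-like cells 14 of 22 other immediate-early genes were 2-fold higher in rd10-vehicle than in WT and none lower, against 4.17% of all genes higher, with a list median of 1.23 beside -0.06 for all genes. Arc, a synaptic immediate-early gene, had 28.3, 195 and 148 CPM in WT, rd10-vehicle and rd10-TMB, and Egr3 31.3, 164 and 151 CPM. Of 12 known AP-1 targets 6 were higher, led by Timp1 with 2.11, 87.1 and 46.5 CPM. The minimum of UMIs was on both libraries together, so targets with few WT UMIs passed it through the rd10 library alone. WT MG-like cells with and without an Atf3 UMI held 6 and 1 UMIs of Timp1, 0 and 1 of Ccl2, 4 and 3 of Lif and 3 and 3 of Hmox1. The hyaluronan receptor gene Cd44 had 77.4, 209 and 150 CPM. Between the rd10 libraries 5 of the 12 targets were 1.2-fold lower with TMB and none higher, beside 11.3% lower and 6.8% higher of all genes. Among the other immediate-early genes 3 of 22 were lower and none higher, a share close to that of all genes. Of 18 other leucine zipper partners 4 were higher in rd10-vehicle than in WT, among them the small Maf gene Maff (18.1, 139 and 136 CPM) and Cebpb (211, 831 and 771 CPM), and 1 was lower (2.79% of all genes). Jdp2, a partner of Jun that represses AP-1 sites, was the 1 of 18 partners past 1.2-fold between the rd10 libraries (15.63 and 20.03 CPM). That share is close to the 6.8% of all genes higher. The 16 upstream kinases, 5 serum response and ternary complex factors and 4 genes of Jun ubiquitination had none past 2-fold in either direction between rd10-vehicle and WT. Of 16 phosphatases and other feedback genes 4 were higher, led by the ERK phosphatase gene Dusp5 (21.4, 143 and 117 CPM). Between the rd10 libraries 2 of these 16 and 2 of the 16 kinases were 1.2-fold lower with TMB and none higher, close to the 11.3% of all genes lower. Of 12 heat shock genes known to respond to dissociation 2 were higher, Hspb1 (36.4, 144 and 122 CPM) and Dnajb1 (97.6, 219 and 207 CPM), and the list median was 0.19. The part of dissociation in the differences was not tested.

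In cone-like cells 3 of 9 other immediate-early genes were 2-fold higher in rd10-vehicle than in WT (1.07% of all genes) and 1 of 9 in rd10-TMB (0.717%). Between the rd10 libraries 7 of 11 were 1.2-fold lower with TMB (14.3% of all genes) and 2 higher (14.1%). Nr4a1, an orphan nuclear receptor gene, had 72.3, 184 and 126 CPM in WT, rd10-vehicle and rd10-TMB, and Ier2 had 87.7, 192 and 142 CPM. Of 10 heat shock genes 4 were 1.2-fold higher with TMB than with vehicle, beside 14.1% of all genes, and none lower, among them Dnaja1 (321 and 409 CPM) and Hsp90ab1 (698 and 878 CPM). The upstream kinases had 4 of 15 higher and none lower, among them the JNK1 gene Mapk8 on 123 and 130 UMIs (0.32 [-0.05, 0.69]). Of 4 measured AP-1 targets none was 2-fold higher in rd10-vehicle than in WT. Among 9 phosphatases and other feedback genes 2 were 1.2-fold lower with TMB than with vehicle (14.3% of all genes) and 2 higher (14.1%). Zfp36, which speeds the decay of early transcripts, had 60.8 CPM with vehicle and 27.6 CPM with TMB, and Socs3, a brake on cytokine signalling, 83.8 and 51.1 CPM.

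Genes whose level most resembled each member were taken over 30 points, 10 clusters in 3 libraries that share cells, depth and background, by Pearson's r of log levels among 11388 genes, as a description. Fosb (0.98), Egr1 (0.97) and Ier2 (0.92) were nearest to Fos, and Jund (0.97), Rhoc (0.97) and Dusp6 (0.96) to Jun. Junb was nearest to Ier2 (0.97), Jun and Jund. Fosl1 was nearest to Timp1 (0.96), Ccl2 (0.94) and Cxcl10 (0.94). Its level was 20.2 and 12.6 CPM in MG-like cells of rd10-vehicle and rd10-TMB and at most 3.33 CPM at the other points. The r values of Fosl1 thus rest mostly on those MG-like points. Atf3 was nearest to Ifitm3 (0.96), Zfp36 (0.96) and Sbno2 (0.95), and Fosl2 to Gcnt2, Shisa5 and Ahnak (each 0.98).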

How the data were processed

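Retinas dissociated with papain had been profiled by droplet sequencing (10x v3 chemistry) in 1 pooled library per group. The authors aligned reads with Cell Ranger 6.0.1 on mm10, merged them in Cumulus, took out doublets by Scrublet, kept cells with at least 500 genes, and clustered them in Seurat 3.2.2 after Harmony batch correction; no doublet caller was run again. The deposited matrix holds the natural log of 1 plus UMIs per 10000, and UMI counts were recovered from it by the smallest step in each cell (100% of values whole within 0.001 UMI). The deposited cluster number of each cell was used. UMIs were summed per cluster and library and divided by the sum's total (CPM), with exact Poisson intervals for levels and exact conditional intervals for ratios (pseudocount 1 UMI), all at 95% and for counting error only. Groups come from the submitters' labels. Columns that matched no sample numbered 0. Self-checks on simulated counts were run with known ratios. Tools were Python 3.11.15, numpy 2.4.6, pandas 2.3.3, scipy 1.17.1 and matplotlib 3.10.9.

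Depth was matched by drawing 1000 UMIs per cell once without replacement (seed 5), with Clopper-Pearson intervals for shares and for co-detection, which was computed for 28 pairs of members as the observed over the expected number of cells. The members and gene lists were chosen with earlier results of these data known. Members were named in every cluster that could be compared. From each pathway list (leucine zipper partners, kinases, serum response factors, feedback genes, immediate-early genes, AP-1 targets, heat shock, Jun ubiquitination), genes past the fold limit in MG-like or cone-like cells with at least 200 UMIs could be named, at most 3 at each end, and Lif and Hbegf beside Fosl1, Junb beside Atf3, and Egr1, Rlbp1, Sox9 and Cldn5 were named after their values were seen. The 3 most similar genes of each member were taken among genes with at least 500 UMIs (log2 of CPM plus 10). Alternatives varied scaling, depth, minimum UMIs, pseudocount, cells kept and fold limit.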

Additional observations from a re-analysis of the deposited data

Results flagged for a closer look

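The difference between the rd10 libraries went in opposite directions in different clusters for Fos and Fosb, and with 1 library per group the difference between clusters was not tested. For Fos the log2 ratio of rd10-TMB over rd10-vehicle was 0.30 in cluster 6 and -0.34 in cone-like cells. For Fosb it was 0.35 in OFF cone bipolar-like cluster 7 and -0.79 in RBC-like cells, where Fosb rested on 108 and 64 UMIs.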

How the results depend on the processing

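No paired analysis was possible because each group held 1 library. Over the 6 clusters 17 member and cluster pairs were 2-fold higher in rd10-vehicle than in WT, 15 were so in rd10-TMB, and 14 were 1.2-fold lower and 0 higher with TMB than with vehicle. The shares of all genes in those clusters ran from 0.447% to 4.17%, from 0.266% to 3.12%, from 11.3% to 17.8% and from 6.8% to 16.7%. A limit of 1.5-fold gave 27 and 28 against WT (MG-like 5 and 5, cone-like 6 in rd10-TMB) and 6 lower between the rd10 libraries (MG-like 1, cone-like 2). The share of all genes at that limit was not computed. With WT cells restricted to those with Xist and no Y-linked gene, 2 cone-like members remained past 2-fold in rd10-vehicle. In rd10-TMB 1 cone-like member was past 2-fold with a minimum of 200 UMIs, with a mitochondrial share of at most 10%, or without the 5% of cells with the most UMIs. The count of members higher with TMB than with vehicle became 3 with thinned cells, 1 with median-of-ratios size factors, with the mean of per-cell CPM, with a minimum of 20 UMIs and with a mitochondrial share of at most 10%, and 5 with the MG share subtracted, an alternative chosen after seeing the data.

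Of 1192 values of single members' ratios under the alternatives, 939 stayed within counting error. Among ratios past their limit 1 value turned direction, Fosl2 in endothelial-like cells (rd10-TMB over WT, -0.95 with thinned cells). Among ratios inside their limit 34 values, in 15 ratios, had the other sign, and 1 of them passed the limit that way, Jun in rod-like cells (rd10-TMB over rd10-vehicle, 0.30 with the MG share subtracted). The difference in the share of cells with Fosl2 between MG-like cells with and without Lcn2 in rd10-TMB also reversed at 500 UMIs (-0.231 percentage points). The causes were not tested. The MG-like log2 ratio of Atf3 over WT ranged from 2.17 to 3.14 in rd10-vehicle and from 1.06 to 2.71 in rd10-TMB, and that of Fosl1 between the rd10 libraries from -1.13 to -0.62. Fosl1, Fosl2 and, outside glia and vessels, Atf3 rest on few UMIs, which limits their ratios.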
